A study of Mus musculus with 4 samples.

Results

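The cells described here are natural killer (NK) cells of mouse blood at the less mature end of a transcript-based scale: 187 cells of 695 NK-gated cells, out of 15439 barcodes kept from 16157. A barcode was kept with at least 200 genes and at most 10% mitochondrial UMIs (unique molecular identifiers, 1 per captured RNA molecule). It was gated as an NK cell with at least 2 UMIs of Ncr1, Klrb1c and Klre1 together, at most 1 UMI of Cd3d, Cd3e and Cd3g, at most 1 UMI of Cd79a, Cd79b and Ms4a1, and none of Csf1r, Ms4a6c and Csf3r. It was called less mature when the UMIs of Cd27, Xcl1, Emb and Ctla2a together exceeded those of Klrg1, Cma1, S1pr5 and Itgam, and mature (423 cells) in the opposite case. The other 85 NK-gated cells had equal sums. The 20 genes of these rules chose the cells from the values reported here. Their levels are therefore a description, and no test of them is used. The class is a range on a scale rather than a separate cell type.

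The cells came from a model of acute lymphoblastic leukaemia (ALL) in C57BL/6J mice, labelled 10 weeks old, that all received dasatinib, an inhibitor of ABL and SRC-family tyrosine kinases. Blood leukocytes were taken and frozen 1 week after the first dose, when every mouse was in remission, and dasatinib was continued for 4 more weeks. Mice were classed afterwards by their status at day 100 as Cured (6 mice, in remission) or Relapsed (6 mice), so both groups carried the leukaemia inoculum and the drug when sampled and no untreated group was analysed here. The blood was thawed and sorted for live cells, and each of the 2 Cured and 2 Relapsed libraries, made with a 10x Genomics 5′ kit, holds a pool of 3 mice. The pool is the replicate, since the files do not assign cells to mice.

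NK cells are innate lymphocytes that kill target cells with granules holding perforin and granzymes, and they secrete chemokines and interferon gamma when activated. In mice they leave the bone marrow as CD27-bearing cells and, on maturing, gain Itgam (CD11b) and then Klrg1, along with more granule content and the sphingosine-1-phosphate receptor S1pr5. Ly49 receptors, encoded by the Klra genes, bind MHC class I molecules and appear in a variegated fashion during this process. Resting type 1 innate lymphoid cells share several genes with less mature NK cells, among them Il7r.

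The less mature class held 39 and 41 cells in Cured replicates 1 and 2 and 47 and 60 cells in Relapsed replicates 1 and 2, with 89444, 102386, 90487 and 128721 UMIs in total. Their median depth was 2217 and 2419 UMIs per cell in the Cured libraries and 1772 and 1920 in the Relapsed libraries. Over all libraries the median was 2053 UMIs, against 1803 in mature NK cells and 2131 in B cells, and less mature cells were the deeper NK class in each of the 4 libraries. No doublet caller was run, and no less mature cell exceeded 3 times the median depth of its class. Libraries shared 20 to 29 barcodes pairwise, and no less mature cell had the barcode of a less mature cell in another library.

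Markers of other lineages were low in these cells, apart from genes that NK cells share. Of 15 T cell markers 11 had a UMI in some less mature cell, and the list summed to 347 to 479 CPM (UMIs of a gene per 1000000 UMIs of the class in a library) in less mature cells, 215 to 328 CPM in mature NK cells and 4507 to 5423 CPM in T cells, and Cd3e, Cd4, Themis and Tcrg-C1 had no UMI in any less mature cell. B cell markers summed to 254 to 369 CPM against 218 to 332 CPM in mature NK cells, with Pax5 and Ebf1 at 0 and B cells themselves at 32296 CPM or more. All platelet and basophil markers were at 0, as were Cd14 and Fn1 among monocyte markers outside the rule. Of 7 markers of other innate lymphoid cells Gata3 alone had UMIs. It stood at 55.3 to 87.9 CPM, against 38.4 to 65.5 CPM in mature NK cells. The features GFP_1 and BCR_ABL_1, named for a reporter and a leukaemia fusion gene, were found in 0 of 187 cells each, which allows a share of up to 1.60% of cells with a captured UMI. At these depths a cell that expresses a feature can show none, so this does not limit the share of expressing cells. The mature NK cells of Relapsed replicate 1 stood apart from those of the other libraries, with neutrophil markers at 2469 CPM (27.6 to 121 CPM elsewhere) and red cell markers at 7906 CPM (0 to 4.27 CPM elsewhere), whereas its less mature cells had 33.2 CPM of each. Without that library 97 genes differed between less mature and mature cells, against 108 with it, and the other comparisons below gave 0 genes with and without it.

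Ctla2a, a cathepsin inhibitor homologue, carried most of the class. It was found in 153 of 187 less mature cells (81.8%), and in 59 of them it was the sole one of the 4 less mature genes. Its level was 1073 and 762 in Cured replicates 1 and 2 and 1061 and 1165 in Relapsed replicates 1 and 2 (CPM), and 188, 135, 105 and 154 in the mature cells of the same libraries. In B cells, which should lack the gene, the share was 0.135%. After each cell was thinned to 1000 UMIs, Ctla2a was found in 57.4% of less mature cells, 14.0% of mature cells and 0.0758% of B cells.

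Xcl1, the chemokine that attracts XCR1-bearing dendritic cells, was found in 86 of 187 less mature cells and 0.018% of B cells. When thinned, 29.0% of less mature and 1.02% of mature cells had it. Its level was 279.5 and 1358 in Cured replicates 1 and 2 and 597 and 1064 in Relapsed replicates 1 and 2 (CPM), so the replicates of each group lay far apart and the groups overlapped. The 5 cells with most Xcl1 held 42.0% of its UMIs. Emb, a cell-surface glycoprotein of the immunoglobulin superfamily, was found in 50 of 187 cells, and Cd27, a costimulatory receptor of the TNF receptor family, in 38 of 187. Cd27 stood at 123, 137, 99.5 and 109 CPM in the 4 libraries (Cured replicates first here and in later lists) against 18.4, 28.0, 32.8 and 21.3 CPM in mature cells. At full depth 0.252% of B cells had a Cd27 UMI and 1.72% an Emb UMI.

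The opposing genes were not absent. Klrg1, an inhibitory receptor of late maturation, stood at 157, 39.1, 111 and 54.4 CPM in less mature and 565, 518, 432 and 431 CPM in mature cells, and 95 of the 187 less mature cells had no UMI of any of the 4 mature genes. Of the less mature cells, 87 had UMIs of 1 of the 4 less mature genes, 64 of 2, 32 of 3 and 4 of all 4. The cut ran through a well-filled part of the scale: 68 less mature cells exceeded it by 1 UMI, 85 cells outside it had equal sums (41 of those with no UMI of the 8 genes), and 121 mature cells were 1 UMI to the other side. The plot of the rule genes by library shows these levels.

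**Figure D1:**
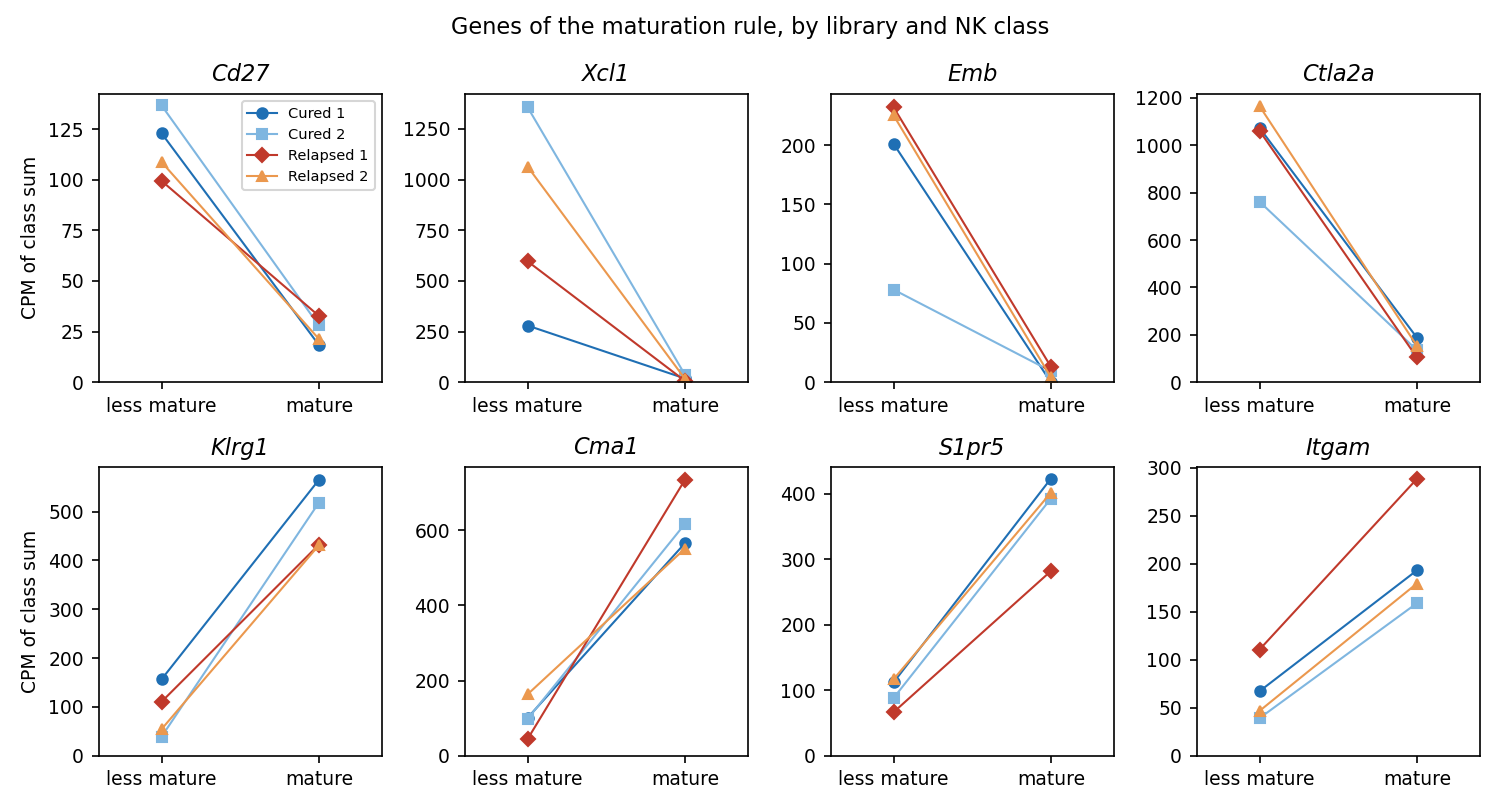
Level (CPM of the class sum in a library, linear axes from 0) of the 4 genes that count toward the less mature side (top) and the 4 that count toward the mature side (bottom), with 1 line per library joining its less mature and mature cells. These genes chose the classes, so the slopes are a description: the Xcl1 points of the less mature cells spread from 279.5 to 1358 CPM.

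Less mature cells made up 25.5% and 24.3% of NK-gated cells in the Cured libraries and 28.5% and 28.8% in the Relapsed libraries. The means were 24.9% ± 0.870 and 28.7% ± 0.255 (SD, n = 2 each), and the groups did not overlap. The exact two-sided permutation test gave p = 0.333, the smallest that 2 against 2 libraries allow, and each library's exact (Clopper-Pearson) 95% binomial interval, from 18.8% to 33.2% in Cured replicate 1 for example, spanned the other libraries' shares. After every barcode was thinned to 1000 UMIs and gated again, which left out shallower cells, the shares were 21.7% and 24.7% against 27.0% and 21.1%, so the groups overlapped (exact permutation p = 1). NK-gated cells were 4.05% and 4.09% of kept cells in the Cured and 5.07% and 4.87% in the Relapsed libraries.

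**Figure D2:**
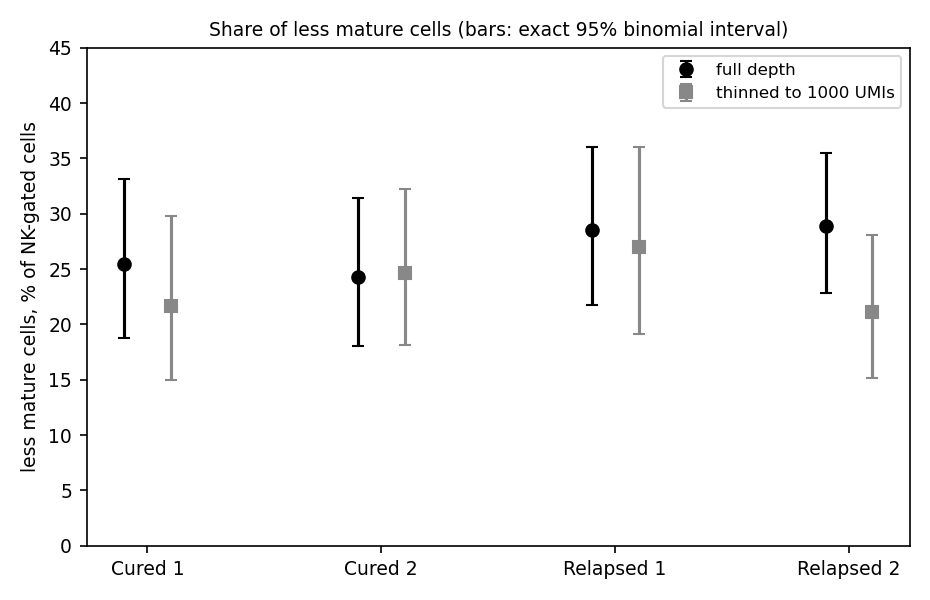
Less mature cells as a percentage of NK-gated cells in each library, at full depth (black circles) and after thinning to 1000 UMIs (grey squares), with exact 95% binomial intervals that cover counting error only. The full-depth points lie between 24.3% and 28.8%, and after thinning Relapsed replicate 2 falls to 21.1%, below both Cured libraries.

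The genes outside the rule were compared between less mature and mature NK cells of the same libraries, to see what else goes with the rule. The quasi-likelihood test of edgeR, with the library as a block, called 108 of 1901 tested genes (5.68%) at an adjusted p under 0.05, 74 of them higher (3.89%) and 34 lower (1.79%) in less mature cells. Ribosomal protein genes were 37 of the 74, and 106 of the 108 moved the same way in 4 of 4 libraries (10.6% of all tested genes were higher and 11.4% lower in 4 of 4). The classes were separated by counts of 8 other genes in the same cells, so a call describes a gene that follows the rule. The adjusted p-values depend on a gene's counts as well as its fold change, and do not rank how strongly genes follow it. The count was 37 without Cured replicate 2, 40 after thinning each cell to 1000 UMIs, 21 without the library block and 20 with DESeq2. All called genes still tested in those fits, which reuse counts of the same cells, kept their sign. With Xcl1 left out of the rule, an alternative added after the data were seen, 104 of 106 did.

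Lymphocyte receptors and a ligand known from early NK cells had the largest rises. Il7r, the interleukin 7 receptor alpha chain (chromosome 15, 9505788 to 9530176 on GRCm38), stood at 179, 97.7, 88.4 and 85.5 CPM in less mature and 9.19, 0, 6.55 and 8.54 CPM in mature cells (log2 fold change 4.06, SE 0.57, adjusted p = 1.26e-05). It was higher in all 4 libraries, although the mature values rested on 5 UMIs. The less mature UMIs came from 16 of 187 cells (8.56%, exact 95% interval 4.97% to 13.5%), against 0.946% of mature NK cells, 0.442% of B cells and 71.0% of T cells, and thinning gave 6.82% of less mature and 0.508% of mature cells. Ltb, which encodes lymphotoxin beta (chromosome 17, 35194439 to 35196320), stood at 112, 283, 133 and 256 CPM against 13.8, 9.34, 6.55 and 68.3 CPM (log2 fold change 2.88, SE 0.33, adjusted p = 2.89e-07). The lowest less mature value of Ltb, in Cured replicate 1, still lay above the highest mature value. Thy1, a surface glycoprotein of T cells and some NK cells, followed with 224, 205, 155 and 209.8 CPM against 64.3, 70.0, 13.1 and 38.4 CPM (log2 fold change 2.07, SE 0.27, adjusted p = 3.91e-06).

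Cd7, an early lymphoid surface molecule, was found in more cells than any of these. Its level was 939, 928, 807 and 1018 CPM in less mature cells and 455, 532, 334 and 469.5 CPM in mature cells (log2 fold change 1.06, SE 0.12, adjusted p = 2.01e-07). Ly6e, an interferon-inducible surface protein, stood at 1185, 1152, 995 and 1057 CPM against 588, 481, 347 and 551 CPM (log2 fold change 1.16, SE 0.11, adjusted p = 2.07e-08). Neither gene overlapped between the classes. Ccr2, a receptor for monocyte-attracting chemokines, rose by a log2 fold change of 1.35 (adjusted p = 9.87e-05) and the integrin alpha chain Itgax (CD11c) by 0.94 (adjusted p = 0.0178). Ccr2 is also 1 of 8 monocyte markers, which summed to 235 to 342 CPM in less mature and 142 to 242 CPM in mature cells with Cd14 and Fn1 at 0. Itgax is 1 of 8 dendritic cell markers, of which 3 had UMIs in less mature cells, and these summed to 232 to 249 CPM against 110 to 177 CPM with Flt3, Clec9a, Xcr1 and Siglech at 0.

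Il7r, Ltb, Thy1 and Tcf7 are also T cell genes. When cells with any UMI of Cd3d, Cd3e, Cd3g or Trac were left out, 170 less mature and 400 mature cells remained, the test called 99 genes, and the log2 fold changes were 3.95 for Il7r, 2.89 for Ltb and 2.00 for Thy1. Tcf7 (TCF-1), a transcription factor of early NK and T cells, was too low to be tested here. It was found in 37 of 187 less mature cells (19.8%, thinned 11.4%), 17 of 423 mature cells (4.02%, thinned 1.78%) and 0.225% of B cells. Cxcr3, the receptor for interferon-induced chemokines, also untested, was found in 18.2% of less mature, 2.60% of mature and 0.162% of B cells (9.09% against 2.28% of NK cells thinned). The fractalkine receptor Cx3cr1 went the other way, with 3 of 187 less mature cells against 47 of 423 mature cells (1.14% against 4.82% thinned) and 0.0451% of B cells.

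Among the other largest rises were Serpina3g, a serine protease inhibitor (log2 1.56), Nr4a2, an immediate early nuclear receptor (1.18), Tnfrsf9, the activation receptor 4-1BB (0.98), and the inhibitory receptor Tigit (0.96). Ctla2b rose too (1.17, adjusted p = 4.66e-05), but it is a near-identical neighbour of the rule gene Ctla2a on chromosome 13, and the sources used here do not say how reads common to both were counted. Nfkbia, the NF-kappa-B inhibitor (0.81), Cd69, an early activation marker (1.15, higher in 3 of 4 libraries), the granule proteoglycan gene Srgn (0.47, named after its values were seen) and the chemokine Ccl3 (0.86, adjusted p = 0.00587) also passed. Some of these calls depended on Xcl1 in the rule. In an alternative chosen after the data were seen, with Xcl1 left out of the sums, 133 genes passed, but Ccl3 was at -0.23, Tnfrsf9 at -0.03 and Nfkbia at 0.54, none of them past the threshold. Cd7 was at 1.08, Ltb at 2.94 and Cd69 at 1.27 in that fit, and each passed.

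Some cytotoxic granule genes fell. Gzma, a granzyme (chromosome 13, 113093825 to 113100981), stood at 13595, 12629, 12808 and 15056 CPM in less mature and 24052, 24634, 22519.9 and 22409 CPM in mature cells (log2 fold change -0.77, SE 0.05, adjusted p = 3.78e-12), with no overlap. Gzmb, the granzyme that activates caspases, stood at 1017, 596, 365 and 482 CPM against 1126, 1401, 878 and 1187 CPM (log2 fold change -0.92, SE 0.14, adjusted p = 3.13e-05). In Cured replicate 1 the difference was small. Perforin (Prf1) fell from 811 ± 87.6 to 528 ± 199 CPM (SD, n = 4, log2 -0.60, adjusted p = 0.00484) and the granule membrane gene Nkg7 by 0.243 on the log2 scale. Of 12 tested granule genes 4 fell, 1 rose (Srgn) and 7 did not pass, with a median of -0.27 against -0.0042 over all tested genes. Of all tested genes 1.79% fell and 3.89% rose.

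Genes of varied function were among the other largest falls. Ly6c2 (Ly-6C, chromosome 15, 75108158 to 75111970) had 414, 547, 674 and 691 CPM in less mature against 1714, 2097, 1323 and 1319 CPM in mature cells (log2 fold change -1.42, SE 0.14, adjusted p = 2.07e-08). Its less mature values did not reach the lowest mature value, although the close relative Ly6c1 makes its counts uncertain. Rac3, a small GTPase (log2 -1.91), Borcs7, a subunit of the lysosome-positioning BORC complex (-1.64), the potassium channel gene Kcnj8 (-1.55), the serpin Serpinb9b (-1.34), the cytolinker gene Plec (-1.26) and the kinase gene Ptk2b (-1.13) fell at lower counts. The beta 2 integrin Itgb2 (-0.53) and galectin 1, Lgals1 (-0.76), passed as well. The chemokine Ccl5 fell from 33194 ± 4012 to 24029 ± 2189.9 CPM (log2 -0.45, adjusted p = 1.03e-06).

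Of the transcription factors of NK maturation, Zeb2, which acts late, fell (201, 68.4, 177 and 101 against 211, 243, 386 and 230.5 CPM, log2 fold change -0.97, SE 0.22, adjusted p = 0.00557). Klf2, a regulator of trafficking and quiescence, also fell, by 0.474 on the log2 scale (adjusted p = 0.0261). Eomes, the T-box factor of NK cells, was at 257, 205, 199 and 218 against 179, 149, 164 and 132 CPM, higher in 4 of 4 libraries (log2 0.52, adjusted p = 0.134), and its relative Tbx21 (T-bet) at 118 ± 50.9 against 174 ± 47.4 CPM (log2 -0.53, adjusted p = 0.303). Neither passed, nor did Irf8, another factor of NK maturation (log2 -0.39, adjusted p = 0.168). Of 14 tested factors 2 fell and none rose, beside 1.79% and 3.89% of all tested genes.

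The Ly49 genes did not move as 1 group. Klra9 (-0.85) and Klra3 (-0.79) fell, and Klra7 rose (0.41, adjusted p = 0.0279). Klra4 (1082 ± 152 against 987 ± 218 CPM), Klra8 (766 ± 135 against 878 ± 137 CPM) and Klrc1, which encodes NKG2A (408 ± 114 against 362 ± 35.2 CPM), did not pass. Of 17 tested NK receptors 2 rose and 2 fell, with a median of -0.19, where 3.89% of all tested genes rose and 1.79% fell. The Klra genes are close copies of each other, so reads may have been split between them. Of 12 tested signalling adaptors and kinases, a set that includes kinases bound by dasatinib, the adaptor Fcer1g alone passed (log2 -0.22).

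**Figure D3:**
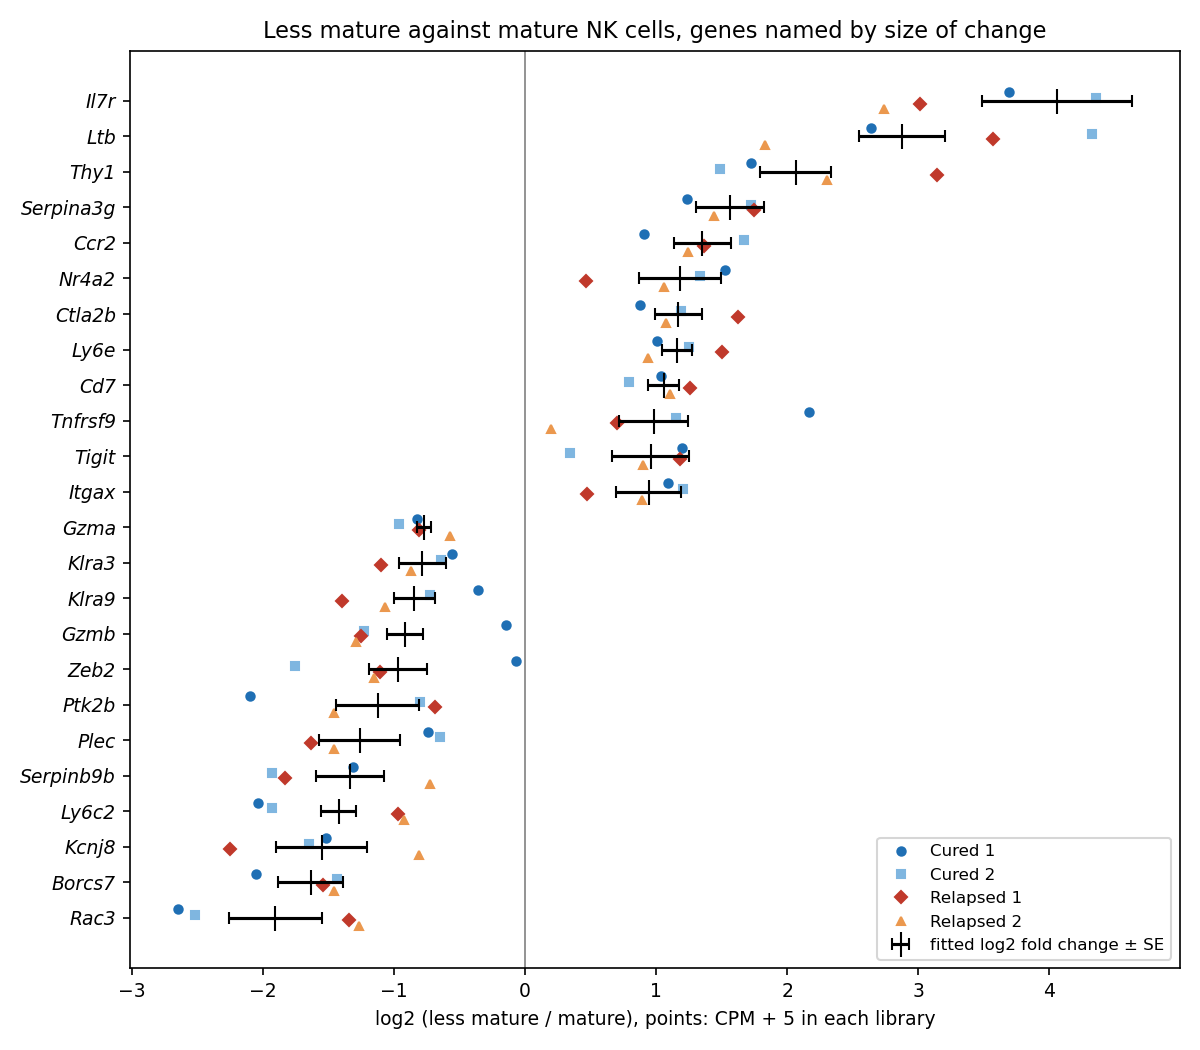
Log2 ratio of less mature to mature NK cells for the 12 genes with the largest fitted rise and the 12 with the largest fitted fall among called genes with a mean of at least 50 CPM, chosen by size. Coloured points are the 4 libraries (CPM plus 5 in both classes, to limit the ratios of low counts), and black bars are the edgeR estimate ± SE, so the 2 scales differ for low genes such as Il7r. All 4 points lie on the same side of 0 for every gene shown, which the choice of genes required.

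Marker lists that leave out the rule's genes were drawn up with earlier results of these data known, and their counts are no independent evidence of direction. Of 25 further less mature markers 10 were tested, 7 rose and none fell, with a median of 1.10. The 7 include Ctla2b, the near-identical neighbour of the rule gene Ctla2a, and Tnfrsf9, which did not pass with Xcl1 left out of the rule. Of 30 further mature markers 22 were tested, 12 fell and none rose, with a median of -0.50. Over all tested genes 3.89% rose and 1.79% fell. Of the markers of type 1 innate lymphoid cells and tissue-resident cells 4 were tested and 3 rose, Il7r, Ly6e and Cd69, which are also on other lists. Itga1 was found in 2 of 187 and Cxcr6 in 1 of 187 less mature cells.

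Cytosolic ribosomal protein genes were higher as a block of small changes. Of 80 tested, 79 had a positive fold change (49.7% of all tested genes) and 37 passed as higher (3.89% of all tested genes). None passed as lower. The median was 0.21, and called values ran from 0.20 to 0.43 on the log2 scale. The number passing was 36 with RLE size factors, 13 after thinning, 10 without Cured replicate 2, 2 with DESeq2, 1 without the count filter and 0 without the library block, whereas 73 or more had a positive fold change in each of these fits. Deeper cells are part of the same contrast (2053 against 1803 UMIs), and the part of depth in this difference was tested no further than by thinning. Among 12 mitochondrially encoded transcripts 8 were positive and 1 passed.

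Levels of several genes shifted along the scale when all 695 NK-gated cells were divided by margin, the less mature minus the mature UMIs. Gzma averaged 24119.5 ± 1324 CPM (SD over 4 libraries) at a margin of -2 or less, 21383 ± 806 at -1, 18396 ± 1143 at 0, 17678 ± 3290.5 at 1 and 11553 ± 1316 at 2 or more. Cd7 went from 408 ± 83.7 through 583 ± 149, 717 ± 255 and 744 ± 215 to 998 ± 202 CPM. The cells just outside and just inside the cut, at margins of 0 and 1, were within each other's spread for both genes. Ly6c2 averaged 1708 ± 577 CPM at -1 and 1128 ± 764 at 0. Its largest drop lay between margins of 1 (1185 ± 323) and 2 or more (309 ± 83.1 CPM). Ltb rose most over that last step, from 86.9 ± 52.1 to 243 ± 98.8 CPM. These bins use the values that set the classes, and the trends are a description.

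**Figure D4:**
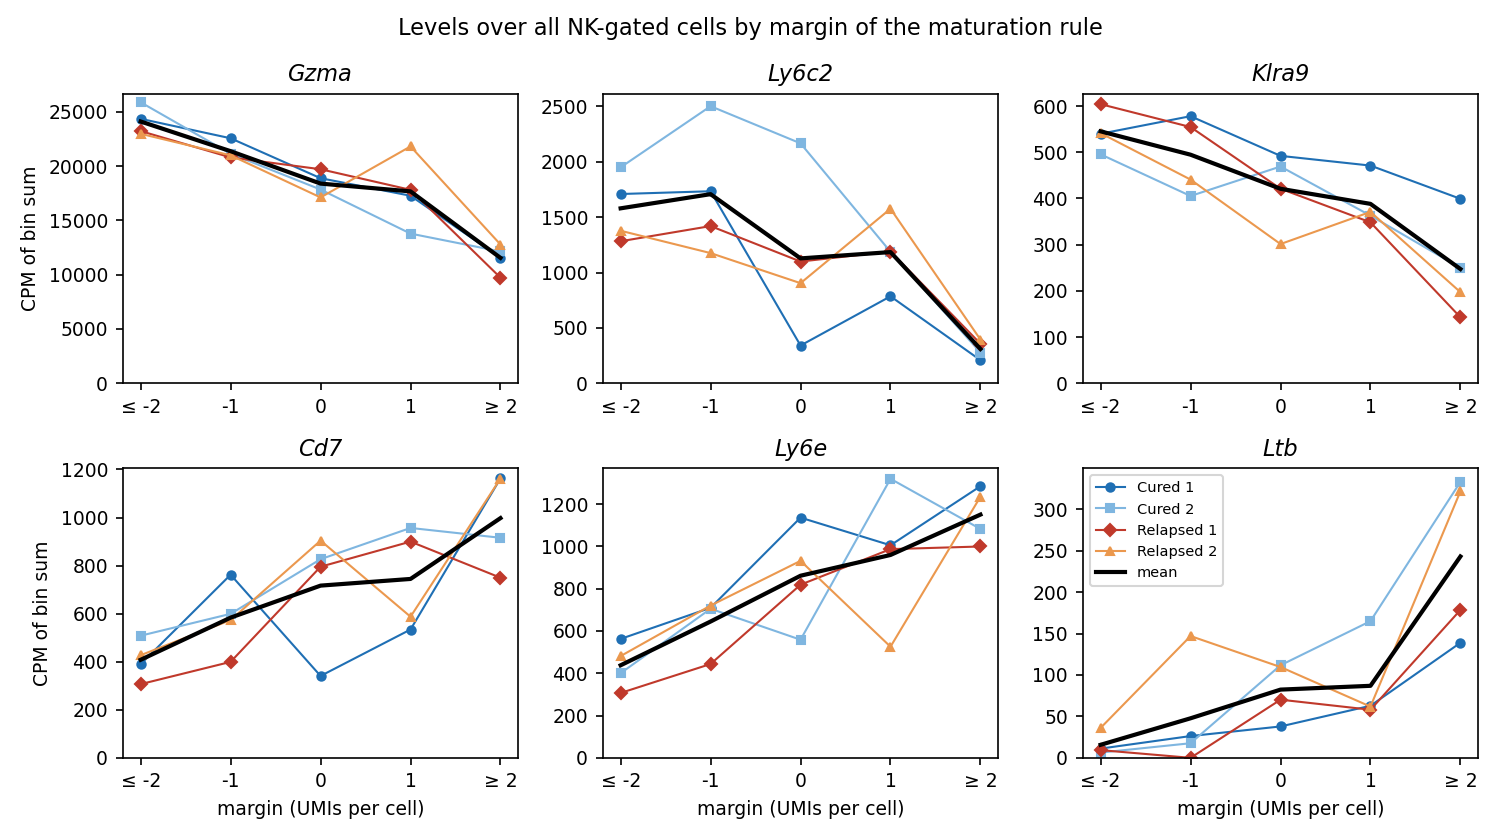
Level (CPM of the summed UMIs of a bin, axes from 0) of 6 genes that are not part of the rule, over all NK-gated cells by margin of the maturation rule (less mature minus mature UMIs per cell); coloured lines are the libraries and the black line their mean. Gzma and Klra9 decline and Cd7, Ly6e and Ltb climb in the mean from left to right, with single libraries crossing, while Ly6c2 is level between -2 and -1 and lowest at 2 or more.

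Less mature cells with and without a Ctla2a UMI were also set side by side. The 34 cells without a Ctla2a UMI (8, 7, 7 and 12 per library) entered the class through the other 3 genes, and 24 of them carried Xcl1. Ccl4, a chemokine of activated NK cells (MIP-1 beta), stood at 2892, 9916, 15988 and 7399 CPM in these cells and at 400.0, 1719, 372 and 427 CPM in the 153 cells with Ctla2a. It was higher without Ctla2a in each library. Tnfrsf9 was found in 16 of 34 cells without and 15 of 153 with Ctla2a, and Gzmb stood at 1577 ± 828 against 398 ± 157 CPM. Klra4 was lower without Ctla2a (429.7 ± 280.5 against 1231 ± 166 CPM), whereas Cd7, Ly6e and Gzma differed in no common direction. Median depth was 2145 UMIs without and 2049 with Ctla2a. A cell without Ctla2a is a member only if it carries Xcl1, Cd27 or Emb, so this split is not independent of the rule. The split and its genes were chosen after the values were seen, and no test was made.

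Few cells held most of the Ccl4. It was found in 84 of 187 less mature and 150 of 423 mature cells (29.5% and 25.1% thinned) and 0.0901% of B cells, yet the 5 highest less mature cells held 70.4% of its UMIs there, with 177 in 1 cell, against 17.3% for the 5 highest mature cells. Between the classes Ccl4 stood at 872, 3164, 3006 and 1818 against 423, 289.5, 393 and 491 CPM, higher in less mature cells in 4 of 4 libraries, but it did not pass (log2 fold change 2.40, SE 0.46, adjusted p = 0.125). With Xcl1 left out of the rule the fold change was -0.63. Ccl3 was spread likewise, with 50% of its less mature UMIs in 5 cells.

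**Figure D5:**
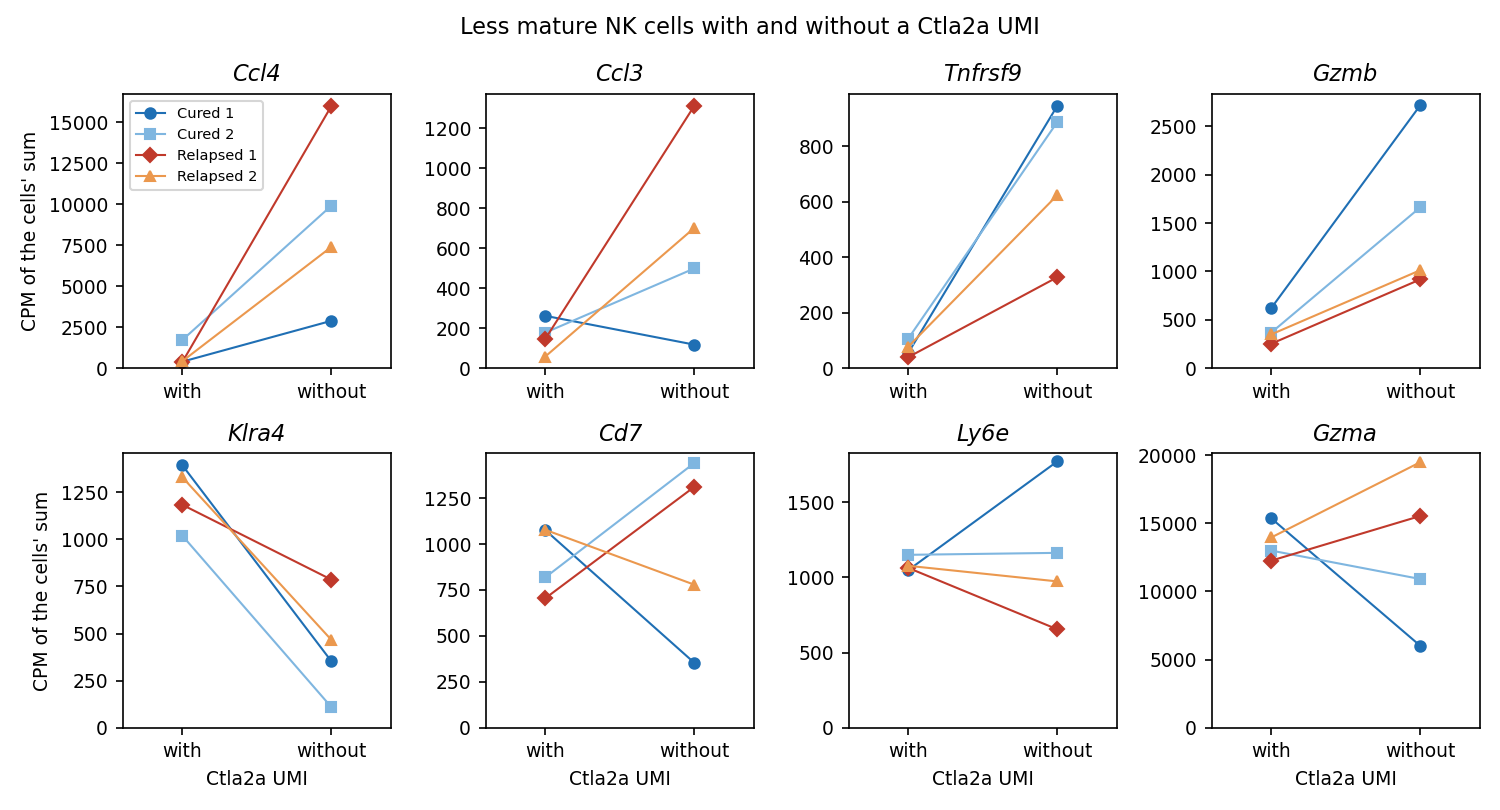
Level (CPM, axes from 0) of 8 genes in less mature NK cells with a Ctla2a UMI (153 cells) and without one (34 cells), with 1 line per library. Ccl4, Tnfrsf9 and Gzmb are higher and Klra4 is lower without Ctla2a in all 4 libraries, while Ccl3, Cd7, Ly6e and Gzma cross between libraries. Cells without Ctla2a entered the class through Xcl1, Cd27 or Emb, so the rule is part of this contrast.

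The 16 cells with an Il7r UMI (5, 3, 3 and 5 per library) differed from the rest of the class in granule genes. Gzma stood at 5395, 1739.7, 4129 and 4179.6 CPM in them and at 15225, 13630.0, 13512 and 16001 CPM in the 171 cells without Il7r, with no overlap. Prf1 was found in 4 of 16 against 95 of 171 cells and Klra4 in 3 of 16 against 101 of 171. Klrg1, S1pr5 and the integrin Itga2 (CD49b) were found in 0 of 16 against 24 of 171, 35 of 171 and 23 of 171. Klrg1 and S1pr5 are genes of the rule that chose these cells, so their counts are a description. With 16 cells a count of 0 leaves each of these shares imprecise. Tmem176b, a membrane protein gene on the type 1 innate lymphoid list, was found in 5 of 16 against 1 of 171 cells, Ltb in 11 of 16 against 29 of 171 and Cd7 in 15 of 16 against 105 of 171. Eomes was found in 6 of 16 of them, Trac in none and Trbc2 in 6 of 16. The Il7r cells had a median of 2557 UMIs against 1977, and the part of depth in the higher shares was not tested. The split was chosen after the values were seen and was given no test.

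Cured and Relapsed mice were then compared within the less mature cells, to ask whether these cells differed in week 1 between mice that later stayed in remission and mice that did not. No gene passed in edgeR, which called 0 of 1386 (0%). An unadjusted p under 0.05 was found for 74 genes, and DESeq2 gave 0 calls and 10 such genes. The levels of the 2 groups did not overlap for 36.2% of tested genes. Fold changes are Cured over Relapsed, so a positive value is higher in Cured. The median depth of the cells also differed between the groups, as given above, and its part in the fold changes below was tested only by thinning, which gave 1 called gene.

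Genes were named here if their mean was at least 50 CPM and their groups did not overlap, with ribosomal, mitochondrial, predicted and rule genes left out. Among these the smallest p-values belonged to 6 genes that share no list. That each was higher in both libraries of 1 group was therefore fixed by the choice. Tuba1a, an alpha tubulin, stood at 212 and 293 in Cured replicates 1 and 2 and 66.3 and 93.2 in Relapsed replicates 1 and 2 CPM (log2 fold change 1.56, SE 0.39, adjusted p = 0.706). Vimentin (Vim), an intermediate filament protein, stood at 1096, 1250.2, 530.5 and 761 CPM (log2 fold change 0.78, SE 0.22, adjusted p = 0.706). The ubiquitin-conjugating enzyme variant Ube2v1 (log2 1.46) and prothymosin alpha, Ptma (0.52), had higher values in both Cured libraries, and Arhgap45, a GTPase-activating protein (-0.995), and the splicing factor gene Bcas2 (-1.13) in both Relapsed libraries. None of these differences passed the adjustment over all tested genes, with adjusted p-values of 0.706 to 0.828.

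Several effector genes had higher values in both Cured libraries without passing the test. The groups did not overlap, in either direction, for 5 of 12 tested granule genes, beside 36.2% of all tested genes. Gzmb stood at 1017 and 596 in Cured replicates 1 and 2 and 365 and 482 in Relapsed replicates 1 and 2 CPM (log2 fold change 0.84, SE 0.28, adjusted p = 0.828), Prf1 at 727, 596, 254 and 536 CPM (log2 0.63, adjusted p = 0.828) and interferon gamma, Ifng, at 324, 107, 88.4 and 62.1 CPM (log2 1.44, adjusted p = 0.828). Of the 56 Ifng UMIs 29 were found in Cured replicate 1. Without Relapsed replicate 2, which leaves 1 Relapsed library, the log2 fold changes were 1.06 for Gzmb and 1.30 for Prf1. Without Cured replicate 2, which leaves 1 Cured library, that of Ifng was 2.09. In that same fit the chemokine Ccl4 was lower in Cured (log2 -1.50). The rule gene Xcl1 was at -1.63 there, which is a description only, since its UMIs helped to choose the cells. Gzma, the most abundant granzyme here, stood at 13595, 12629, 12808 and 15056 CPM (log2 -0.16, adjusted p = 0.88), and the granule list had a median of 0.05 with 7 of 12 positive.

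Groups overlapped for 4 genes that followed maturation or mark NK cells. Ltb was at 112, 283, 133 and 256 CPM, Cd7 at 939, 928, 807 and 1018 CPM, Eomes at 257, 205, 199 and 218 CPM and Zeb2 at 201, 68.4, 177 and 101 CPM. Their log2 fold changes were -0.07, -0.04, 0.07 and -0.09 (SE 0.40, 0.21, 0.32 and 0.48), with signs that changed in some alternatives. Among the further less mature markers the groups did not overlap for 5 of 12, and among the further mature markers for 8 of 22, beside 36.2% of all tested genes. The medians were 0.03 (6 of 12 positive) and -0.10 (9 of 22 positive), against -0.02 over all tested genes, of which 48.0% were positive, and no marker passed.

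Stress and ribosomal lists held unequal numbers of positive and negative members. Of 12 tested heat shock genes 11 were positive (median 0.41), among them Hspa8 at 1174, 1104, 652 and 754 CPM (adjusted p = 0.828) and Dnajb1 at 324, 117, 88.4 and 117 CPM. Of 19 immediate early genes 15 were positive (median 0.31), but fewer were without Cured replicate 1. Fos stood at 1185, 420.0, 398 and 225 CPM and Zfp36 at 872, 283, 265 and 241 CPM, with Cured replicate 1 the highest library for both, and Fos was as high in its mature cells (1167, 289.5, 445 and 367 CPM). Without Cured replicate 1 the immediate early list had 8 of 20 positive and a median of -0.13, and the heat shock list 9 of 16 and 0.07. Ribosomal protein genes were mostly negative (63 of 80, median -0.14), as were mitochondrial transcripts (10 of 12, median -0.30), and no member of these lists passed.

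Whether the difference between Cured and Relapsed mice was itself different in less mature and mature NK cells was tested as an interaction in edgeR. The test passed 0 of 2423 genes (0%). In edgeR 108 genes had an unadjusted p under 0.05, in DESeq2 2 genes had, and DESeq2 also passed 0. Ly6c2 had the smallest p. In less mature cells it stood at 414, 547, 674 and 691 CPM, lower in both Cured libraries, and in mature cells at 1714, 2097, 1323 and 1319 CPM, higher in both Cured libraries. The interaction, the less mature minus the mature log2 fold change, was -1.04 (SE 0.20, unadjusted p = 0.000136, adjusted p = 0.329), and it passed without the count filter (adjusted p = 0.0106). In that fit S100a8, a neutrophil gene, had a smaller p (log2 5.48), and S100a8 and its partner S100a9 were the 2 genes called without Relapsed replicate 2. Of the mature cells' S100a8 UMIs, 169 came from 5 cells of Relapsed replicate 1, the library that stood apart. Without that library the Ly6c2 interaction was -1.08 and did not pass (adjusted p = 0.646). Cxcr3, with 14, 11, 7 and 7 UMIs in less mature cells, had an interaction of 3.45 that did not pass (adjusted p = 0.975). Its level was 174, 83.3, 71.4 and 62.3 CPM in NK-gated cells at a margin of 2 or more. At a margin of -2 or less it was 5.57, 0, 27.9 and 24.1 CPM, which rested on 1, 0, 3 and 4 UMIs. The interaction also used the cells at margins of 1 and -1, and those at -1 held 0, 1, 2 and 2 UMIs.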

How the data were processed

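The deposited values are raw UMI counts per gene and barcode for 4 libraries. The submitters' processing notes name Cell Ranger 3.1.0 and mm10 for the counts the authors made, and give no annotation release here. The files list 32287 features, and coordinates are from GENCODE M21 on GRCm38, where 32158 identifiers were found and 129 were not.

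Cells were gated on raw UMIs as the report states. The members, gene lists and rule for named genes were chosen with earlier results of these data known. UMIs were summed per library and class and compared in edgeR 4.0.16 (R 4.3.3) by its quasi-likelihood test (TMM, filterByExpr, robust fit, Benjamini-Hochberg adjustment over all tested genes, threshold 0.05); every adjusted p is edgeR's unless DESeq2 1.42.0 is named. The 20 rule genes were left out of tests between classes. Between groups, those past the count filter stayed among the 1386 tested genes, of which 1377 were outside the rule. CPM were computed here from the sums. Shares were compared by exact permutation (scipy 1.17.1, Python 3.11.15), with exact 95% binomial intervals that cover counting error only. Nothing in the labels pairs the pools or says which mice they hold. The p-values between groups measure the spread between pools. Between the classes and for the interaction, where the library was a block, they measure how the class difference varies over libraries.

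Named between classes were up to 12 called genes per direction with the largest fold change. These had a mean of at least 50 CPM and 1 direction in 4 libraries. Named between groups were the 6 smallest p-values among genes outside the rule with a mean of at least 50 CPM and no overlap of the groups. In each comparison 20 fixed genes and up to 3 per list were named too. Ribosomal, mitochondrial, antigen receptor, sex-linked and predicted genes entered as groups alone. Alternatives were DESeq2, RLE size factors, no count filter, block terms, leaving out each library, a margin of 2 UMIs, stricter T cell and mitochondrial limits, thinning to 1000 UMIs, another denominator for the share, and 2 rules added after the data were seen, without Xcl1 or without Ctla2a. The tests were checked on simulated data, drawn with the same spread for every gene. Cured against Relapsed recovered 43 of 100 genes changed by 1 on the log2 scale and 97 of 100 changed by 2. Less mature against mature recovered 81 of 100 and 100 of 100. False calls numbered 6 and 5. Counts of close copies (Klra, granzyme, serpin, Ly6c and tubulin genes) and of overlapping genes are uncertain, because the handling of shared reads is not stated.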

Additional observations from a re-analysis of the deposited data

How the results depend on the processing

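The count of genes differing between less mature and mature cells (108) was 20 with DESeq2, 21 without the library block, 40 after thinning, 37 to 97 when 1 library was left out (lowest without Cured replicate 2) and 67 with Ctla2a left out of the rule, an alternative added after the data were seen. Without the count filter 81 passed, 23 higher and 58 lower, and the median over all genes moved to -0.16. For Cured against Relapsed the count of 0 was 2 without the count filter, 1 after thinning and 0 to 22 when 1 library was left out (10 without Cured replicate 2, 22 without Relapsed replicate 2). The interaction count of 0 was 2 without the count filter and 0 to 2 with 1 library left out. Fits with 1 library left assume that it varies like the other group. Over 13 alternatives the 37 named genes called between the classes gave 451 values, of which 335 still passed in the same direction, 114 did not pass and 2 reversed. The replicate block gave 2 genes, Fos and the predicted gene Gm42418; same-numbered libraries deviated with a correlation of 0.05 across 1386 genes, so the labels' numbers were not taken as pairs. The difference in share (-3.79 points) ranged from -4.41 to -3.18 with 1 library left out and was negative in each other setting run for it (-0.83 after thinning).

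Fold changes that turned, the cause of which was not tested, were these. For less mature against mature cells with Xcl1 left out, Tnfrsf9 was -0.034, Ccl3 -0.23, Ccl4 -0.63 and Klrc1 -0.0074. Klrc1 was also -0.022 at a margin of 2, and Klra4 -0.33 with Ctla2a left out. For Cured against Relapsed, at a margin of 2, Zeb2 was 0.022, Cd7 0.035 and Gzma 0.018. With T cell UMIs excluded, Eomes was -0.025, Cd7 0.016 and Ltb 0.019. Cd7 was 0.016 without the count filter and 0.025 with Xcl1 left out, and Ltb 0.42 with Ctla2a left out. With 1 library left out, Zeb2 ranged from -1.04 to 0.54, Eomes from -0.10 to 0.26, Cd7 from -0.16 to 0.14 and Ltb from -0.88 to 0.53. The Ltb interaction ranged from -0.19 to 2.57. Few UMIs per library limit the precision of genes under 50 CPM, and 187 cells limit the rest.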

Other observations

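Other gene lists were compared between less mature and mature NK cells, where 5.68% of all tested genes passed. None of 15 heat shock genes (median -0.03), 10 glycolysis genes (0.08) or 9 interferon gamma response genes (0.01) passed the edgeR test. Of 6 cell cycle genes the histone gene H2afz passed, at -0.24 on the log2 scale. Of 5 type I interferon response genes Ly6e alone passed (median 0.35). Of 14 cytokine receptor and JAK-STAT genes Il7r alone passed (median 0.16), and Il18rap, a chain of the interleukin 18 receptor, was lower in 4 of 4 libraries without passing (log2 -0.52, adjusted p = 0.0736). Of 7 chemokine and cytokine genes Ltb and Ccl3 rose and Ccl5 fell (median 0.62). Of 12 chemokine and adhesion receptors Ccr2 and Itgax rose and Itgb2 fell (median -0.28), and of 19 immediate early genes 4 rose and 1 fell (median 0.10).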
